A study of Mus musculus with 2 samples.

Results

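The 10 genes described here code for ligands and receptors of 3 vessel-forming signalling systems: the vascular endothelial growth factor (Vegf) system with Vegfa, Pgf, Flt1, Kdr and Nrp1, the apelin system with Apln and Aplnr, and the angiopoietin system with Angpt1, Angpt2 and Tek. They were taken from a fixed list of gene symbols, and all 10 were found among the 32285 gene identifiers of the count files. Their levels were compared between tenotomy and sham muscle in endothelial-like, pericyte-like, macrophage-like and mesenchymal-like cells, which were gated on marker genes that include none of the 10.

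The data are unique molecular identifier (UMI) counts per gene and cell from 2 single-cell libraries of mouse plantaris, a calf muscle. In 5 male C57BL/6 mice aged 12 weeks (C57BL/6J in the design text), tenotomy, the cutting of a tendon, was done on 1 side, and the plantaris of the opposite side of the same mice was the sham control. The 5 muscles of a group were pooled at day 4 and digested with collagenase type II, and live mononuclear cells (Calcein AM+, propidium iodide-) were collected by sorting. There was 1 library for each pool, so no replicate exists, no test across animals was possible, and treatment and library cannot be told apart.

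Vegfa is the main growth factor of endothelial cells and is made by many other cell types. It acts through Kdr, the main signalling receptor, and also binds Flt1, which holds Vegfa tightly, signals weakly and also occurs as a soluble form, while Nrp1 is a co-receptor shared with semaphorins. Pgf, placental growth factor, binds Flt1 but not Kdr. Apln is the secreted peptide ligand of the G protein-coupled receptor Aplnr, and in growing vessels it is known as a gene of the tip cells that lead a sprout. Tek is the receptor of the angiopoietins: Angpt1, made mostly by cells around the vessel, activates it, and Angpt2, released by endothelial cells, opposes or replaces that signal depending on context.

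Promoter sequences are shown for the gene with the largest difference, Apln, and for the 2 Vegf receptor tyrosine kinases, Flt1 and Kdr, that were lower together. Each runs 5′ to 3′ on the strand of the gene and ends at the base before the start of the gene, on the RefSeq table's build GRCm38.p6. Capitals mark ACGTG or GCGTG, a core motif bound by hypoxia-inducible factors, read on both strands (so also CACGT or CACGC). The Apln stretch, 250 bases at chrX:48034854-48035103 on the minus strand, held no match.
Apln: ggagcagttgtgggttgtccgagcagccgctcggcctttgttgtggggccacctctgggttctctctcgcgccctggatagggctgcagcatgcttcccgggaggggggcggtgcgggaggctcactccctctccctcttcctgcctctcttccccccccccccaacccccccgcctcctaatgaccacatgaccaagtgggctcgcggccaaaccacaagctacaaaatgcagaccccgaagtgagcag
The Flt1 stretch, 250 bases at chr5:147726012-147726261 on the minus strand, held 1 match, 184 bases before the start.
Flt1: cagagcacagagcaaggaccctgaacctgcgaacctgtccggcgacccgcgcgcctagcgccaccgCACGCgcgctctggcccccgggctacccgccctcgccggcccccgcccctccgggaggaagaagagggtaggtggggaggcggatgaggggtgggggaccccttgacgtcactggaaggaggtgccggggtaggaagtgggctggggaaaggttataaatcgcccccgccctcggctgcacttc
The Kdr stretch, 247 bases at chr5:75978459-75978705 on the minus strand, held 2 matches, 131 and 89 bases before the RefSeq start.
Kdr: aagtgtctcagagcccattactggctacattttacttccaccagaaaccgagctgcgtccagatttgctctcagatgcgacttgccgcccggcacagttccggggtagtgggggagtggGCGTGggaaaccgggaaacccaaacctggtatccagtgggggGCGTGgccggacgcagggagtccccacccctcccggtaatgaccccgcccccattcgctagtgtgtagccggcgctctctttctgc
Such a match was present in 38.6% of the 32851 promoters of the table over the 250 bases before the start, so its presence or absence is a description of these letters only. The table held promoters for 7 of the 10 genes.

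The sham library held 8463 barcodes with 47781353 UMIs and the tenotomy library 11950 barcodes with 94556283 UMIs, and 33 barcodes occurred in both. The filters left 7548 cells of the sham and 10917 of the tenotomy library. Endothelial-like cells numbered 3186 (42.2% of kept cells) in sham and 1449 (13.3%) in tenotomy, pericyte-like cells 182 and 101, macrophage-like cells 348 (4.61%) and 4567 (41.8%), and mesenchymal-like cells, the class of fibro-adipogenic progenitors and fibroblasts, 2075 (27.5%) and 1858 (17.02%). Cells that met no gate were 15.4% and 12.0%. In each of these 4 classes, 2 to 5 of the 10 genes that led the class by fold were markers of that class and none was a marker of another. The gate itself selects for this, so it is a description and no check of the classes. Unsupervised clusters split each large class by library: the endothelial cluster with most sham cells held 2643 sham and 165 tenotomy cells, and that with most tenotomy cells held 93 and 1105. For mesenchymal-like cells these clusters held 1179 and 42, and 1 and 1124, and for macrophage-like cells 177 and 21, and 37 and 1810. Levels are given in CPM, a gene's UMIs per 1000000 UMIs of all cells of the class in that library. Intervals in brackets are exact 95% intervals that cover counting error only, and levels are compared for 1 gene at a time because counts from the 3′ end do not rank genes. A gene counted as measured with at least 25 UMIs in a class over both libraries, and as different at 2-fold or more.

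In endothelial-like cells, 9 of the 10 genes were measured, and 3 of them were at least 2-fold higher in tenotomy (Apln, Pgf and Aplnr) and 2 at least 2-fold lower (Kdr and Vegfa). Of all 11701 genes measured there, 9.07% were that much higher and 8.44% that much lower. The median log2 fold was -0.07 over the 9 genes and -0.03 over all measured genes. Among the ligands, Apln and Pgf were higher and Vegfa was lower. Angpt2 was higher below the 2-fold limit, with a direction that depended on how cells were weighted. Among the receptors, Aplnr was higher, Tek was nearly level, and Flt1, Kdr and Nrp1, the receptors of Vegfa, were lower.

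**Figure D1:**
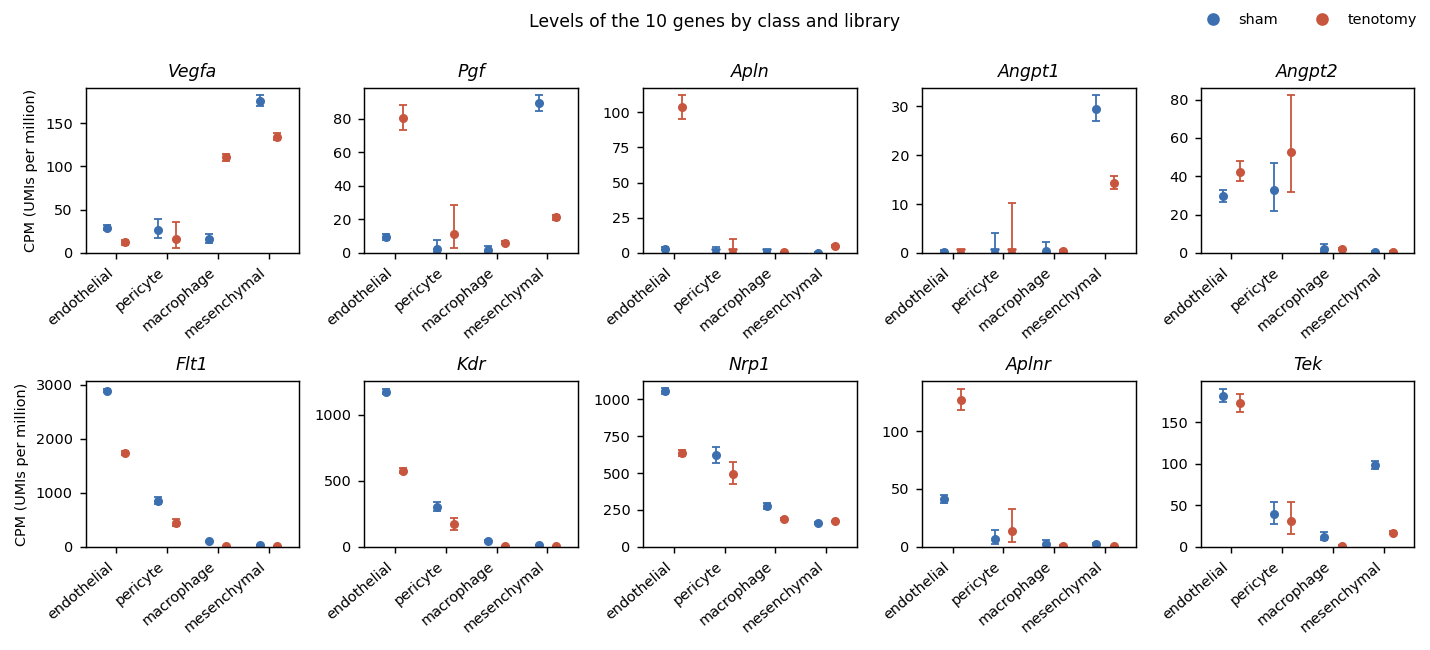
Level of each of the 10 genes in 4 gated cell classes (x axis), in CPM on a linear axis that starts at 0, for the sham (blue) and tenotomy (red) library; points are the summed level of the class and bars are exact 95% Poisson intervals. Apln, Pgf and Aplnr were higher and Flt1, Kdr and Nrp1 lower in the endothelial-like cells of the tenotomy library, and Vegfa was higher in its macrophage-like cells.

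Apln (ENSMUSG00000037010, chrX:48025146-48034853, minus strand, mm10) had the largest fold of the 10 genes in endothelial-like cells. Its level was 3.14 CPM (38 UMIs) in sham and 103 CPM (617 UMIs) in tenotomy, 32.9-fold higher (23.7 to 47.0). Few cells carried it. A UMI of Apln was found in 22 of 3186 sham cells (0.691%) and 117 of 1449 tenotomy cells (8.07%), and after thinning every cell to 2000 UMIs in 0.223% (0.0817 to 0.484) and 6.22% (4.85 to 7.83). The 5 cells with the most Apln held 55.3% of its UMIs in sham and 33.7% in tenotomy, up to 13 and 62 UMIs in a cell. No Apln UMI was found in lymphocyte-like cells, taken as the type that should lack these genes, in 60 sham cells (which allows a share of up to 5.00% of cells with a UMI) or 284 tenotomy cells (up to 1.06%). Such limits hold for cells with a UMI at their depth, not for cells that express the gene. Median depths were 3487 and 3097 UMIs in endothelial-like cells and 3954.5 and 1939.5 in lymphocyte-like cells of sham and tenotomy.

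The other large difference among endothelial ligands was in Pgf (ENSMUSG00000004791, chr12:85166635-85177790, minus strand). It stood at 9.42 CPM (114 UMIs) in sham and 80.4 CPM (480 UMIs) in tenotomy, 8.54-fold higher (6.95 to 10.6). Pgf too was concentrated in few cells: its UMIs were in 33 sham cells (1.04%) and 78 tenotomy cells (5.38%), thinned 0.519% and 4.36%, and 5 cells held 69.3% of them in sham and 37.9% in tenotomy. Lymphocyte-like cells had no Pgf UMI either, which at their small number and depth is no bound on expression. In the small gate of lymphatic endothelial-like cells, with 18 sham and 20 tenotomy cells, Pgf was at 257 CPM (25 UMIs) and 350 CPM (22 UMIs), 1.36-fold apart (0.731 to 2.51).

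Angpt2 (ENSMUSG00000031465, chr8:18690263-18741562, minus strand) differed far less, at 29.5 CPM (357 UMIs) and 42.4 CPM (253 UMIs), 1.44-fold higher in tenotomy (1.22 to 1.69). The share of thinned cells with a UMI was 4.60% (3.84 to 5.46) and 5.29% (4.03 to 6.80), so these shares overlapped. Taken as the mean over cells of each cell's CPM, Angpt2 was at 0.965 of its sham level, so its direction depended on how cells were weighted. Vegfa (ENSMUSG00000023951, chr17:46016993-46032369, minus strand) was low in endothelial-like cells and lower after tenotomy, at 29.2 CPM (354 UMIs) against 12.1 CPM (72 UMIs), 2.42-fold (1.88 to 3.17). Its thinned share of cells was 5.53% in sham and 2.41% in tenotomy, where lymphocyte-like cells had 5.00% (3 of 60) and 3.76% (5 of 133). These shares overlap in their intervals (1.04 to 13.9% for the 60 sham lymphocyte-like cells). Lymphocyte-like cells held Vegfa at 55.7% (20.3 to 123) of its endothelial CPM in sham and 144% (73.2 to 262) in tenotomy. They are therefore no background for Vegfa, and the overlap does not decide whether endothelial-like cells expressed it. With called doublets kept, the Vegfa difference was 1.85-fold and no longer passed the 2-fold limit. Without cells that carried at least 2 markers of another class, neither Vegfa nor Kdr passed it. Angpt1 was close to absent from endothelial-like cells, with 2 UMIs in sham and 0 in tenotomy.

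Among the receptors of endothelial-like cells, Aplnr (ENSMUSG00000044338, chr2:85136225-85139923, plus strand) stood apart because it was higher. Its level was 41.3 CPM (500 UMIs) in sham and 127 CPM (758 UMIs) in tenotomy, 3.07-fold (2.74 to 3.45). Unlike its ligand it was spread over many cells: 11.7% of sham and 24.98% of tenotomy cells had a UMI, or 6.90% (5.97 to 7.92) and 16.2% (14.0 to 18.5) after thinning, and the 5 highest cells held 7.40% and 7.52% of its UMIs. Leaving out cells with cell cycle UMIs or with markers of another class kept Aplnr at least 2.29-fold higher.

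Flt1 (ENSMUSG00000029648, chr5:147561604-147726011, minus strand) was found in nearly every endothelial-like cell of both libraries. Its level was 2885 CPM (34925 UMIs) in sham and 1732 CPM (10337 UMIs) in tenotomy, 1.67-fold lower (1.63 to 1.70), and 98.1% and 93.5% of thinned cells had a UMI. Counts per gene do not separate the membrane and the soluble form of Flt1. Kdr (ENSMUSG00000062960, chr5:75932827-75978458, minus strand) was 2.04-fold lower (1.97 to 2.12), at 1175 CPM (14229 UMIs) and 575 CPM (3433 UMIs). That is close to the 2-fold limit, and over the alternatives the difference ranged from 1.76-fold to 2.06-fold. Nrp1 (ENSMUSG00000025810, chr8:128358604-128503363, plus strand) was 1.66-fold lower (1.60 to 1.72), at 1057 CPM and 637 CPM. Thinned shares of cells were 84.4% and 65.4% for Kdr and 81.3% and 69.7% for Nrp1. Tek (ENSMUSG00000006386, chr4:94739289-94874976, plus strand) was nearly level in endothelial-like cells, at 182 CPM (2206 UMIs) and 173 CPM (1035 UMIs), 1.05-fold lower (0.976 to 1.13), with a UMI in 30.3% and 29.2% of thinned cells. The summed level of the 9 endothelial gate markers was 7556 CPM in sham, 7357 CPM in tenotomy, while the summed markers of macrophages in endothelial-like cells were 96.9 CPM and 460.3 CPM. Those of pericytes were at 808 CPM and 551 CPM, and those of mesenchymal cells at 306 CPM and 333 CPM. Cells with cell cycle UMIs were 0.519% of thinned endothelial-like cells in sham and 5.85% in tenotomy. The part of macrophage, pericyte and mesenchymal transcripts and of cycling cells in the differences was not tested.

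**Figure D2:**
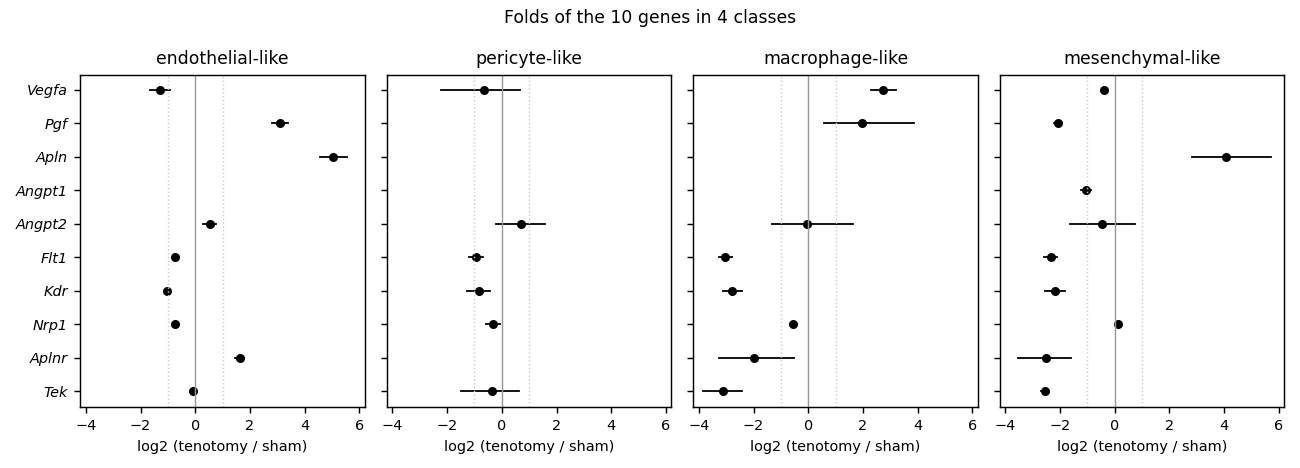
Fold of tenotomy over sham for each gene measured in a class (log2 scale, bars are exact 95% counting intervals, dotted lines mark 2-fold either way). Apln, Pgf and Aplnr lie right of the 2-fold line in endothelial-like cells, Vegfa does so in macrophage-like cells, and no gene measured in pericyte-like cells lies past either line.

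Endothelial-like cells were divided further by marker sets for capillary, arterial, venous and sprouting cells, the last on Esm1, Kcne3, Cxcr4, Nid2, Pdgfb and Dll4. These states are ranges of a score, not cell types: 687 of 4635 endothelial-like cells (14.8%) lay near a limit, and 2223 sham and 982 tenotomy cells had no state. There were 536 capillary, 192 arterial, 113 venous and 122 sprouting cells in sham, and 48, 101, 228 and 90 in tenotomy. The median cell of each state held macrophage marker UMIs in tenotomy, at 323 to 529.5 CPM, and none in sham. Median pericyte marker levels were 0 throughout, with 55.2 to 74.1% of a state's cells without such a UMI. Median mesenchymal marker levels were 199 to 323 CPM over both libraries.

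Sprouting cells of the tenotomy library held the highest levels of Apln, Pgf and Angpt2. Apln was at 31.3 CPM (15 UMIs, all in 2 cells) in sham and 593 CPM (289 UMIs) in tenotomy sprouting cells, 18.9-fold higher (11.3 to 34.3), against 5.38 CPM and 85.4 CPM in venous cells. Capillary and arterial cells had 3 or fewer Apln UMIs in either library. Pgf was at 119 CPM in the sham and 476 CPM in the tenotomy library sprouting cells, 4.00-fold (2.98 to 5.45), and at 23.4 CPM or less in the other 3 states. Angpt2 was at 66.8 CPM and 131 CPM in sprouting cells, 1.97-fold (1.27 to 3.11), whereas arterial cells had 37.0 CPM (31 UMIs) in sham and 10.8 CPM (5 UMIs) in tenotomy, 3.43-fold lower (1.32 to 11.3). The sprouting state still held a minority of positive cells: 21.1% of its 90 tenotomy cells had an Apln UMI, 22.2% a Pgf UMI and 28.9% an Angpt2 UMI. Endothelial-like cells without a state held 222 of the 617 tenotomy Apln UMIs, at 60.6 CPM against 2.03 CPM in sham.

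Aplnr followed another order, with venous cells highest in both libraries. Its level was 102 CPM (57 UMIs) in sham and 217 CPM (267 UMIs) in tenotomy venous cells, 2.13-fold higher (1.59 to 2.88), and 31.3 CPM and 75.9 CPM in sprouting cells. Arterial cells had 2 Aplnr UMIs in sham and 17 (36.6 CPM) in tenotomy. In capillary cells the 56.1 CPM and 85.6 CPM were 1.53-fold apart (0.739 to 2.84), which counting error could give.

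The Vegf receptors Flt1 and Kdr were lower in tenotomy within each of the 4 states, with intervals that exclude no difference. Flt1 was 1.25-fold (1.12 to 1.41) lower in capillary, 1.41-fold in arterial, 1.68-fold in venous and 2.08-fold (1.88 to 2.29) in sprouting cells. Kdr was 1.44-fold (1.19 to 1.76), 1.60-fold, 1.54-fold and 2.48-fold (2.15 to 2.87) lower in the same order. In sham, Kdr was highest in sprouting cells (1384 CPM) and lowest in venous cells (611 CPM), and in tenotomy the sprouting level (558 CPM) was below the capillary level (879.6 CPM). Nrp1 was 2.43-fold (2.10 to 2.82) lower in sprouting cells, at 1302 CPM and 536 CPM, and 1.20-fold (0.996 to 1.45) in capillary cells. For Tek, the interval included no difference in capillary, venous and sprouting cells, and arterial cells were 1.51-fold lower (1.14 to 2.02).

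**Figure D3:**
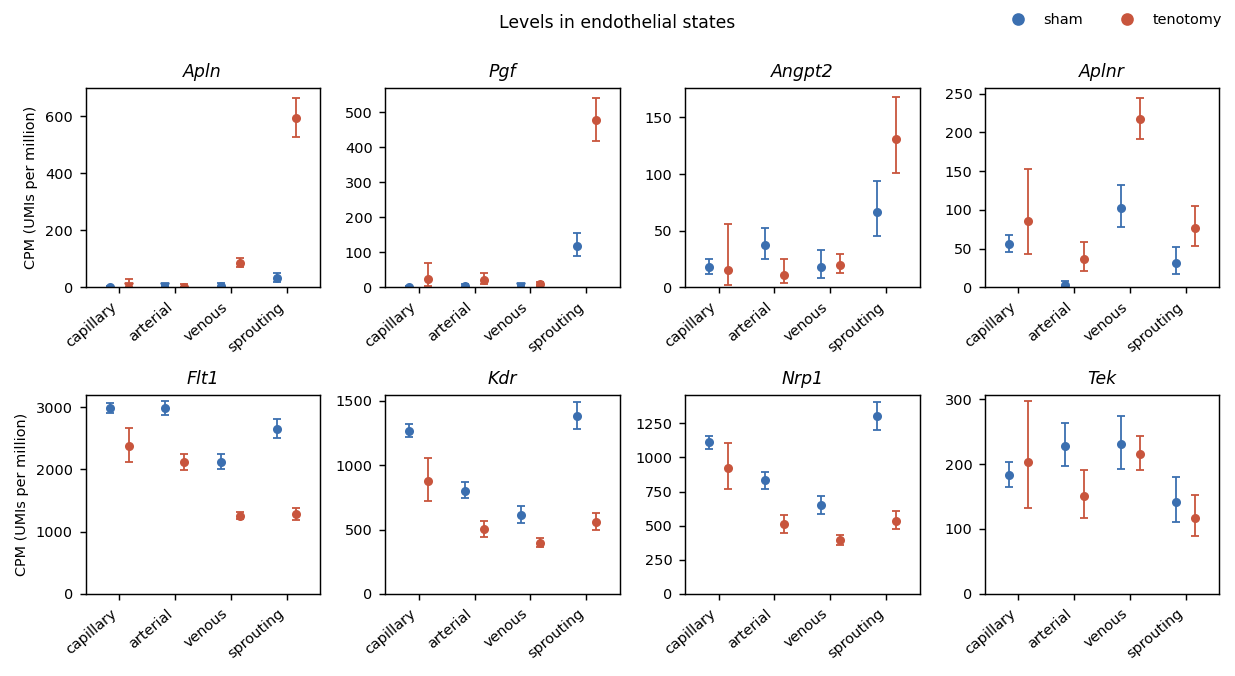
Levels of 8 genes in 4 marker-defined states of endothelial-like cells (CPM, linear axes from 0, bars are exact 95% Poisson intervals; sham blue, tenotomy red). Apln, Pgf and Angpt2 peak in sprouting cells of the tenotomy library, Aplnr peaks in venous cells of both libraries, and Flt1 and Kdr are lower in tenotomy in each state, as is Nrp1 outside the capillary state.

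Within single endothelial-like cells of the tenotomy library, thinned to 2000 UMIs, Pgf and Angpt2 were found more often in cells with Apln than in cells without. Of 67 cells with an Apln UMI, 25.4% (15.5 to 37.5) also had a Pgf UMI, against 2.97% (2.01 to 4.21) of 1010 cells without Apln. Angpt2 was found in 22.4% (13.1 to 34.2) of cells with Apln and 4.16% (3.01 to 5.58) of cells without. The sprouting-state markers compared were not found more often beyond counting error, and Nid2 and Pdgfb were not compared. Dll4 was in 10.4% of cells with Apln and 16.9% without, Cxcr4 in 2.99% and 3.76%, and Esm1 in 1.49% and 0.990%. Kcne3 was in 0 of 67 and 1 of 1010 cells. Of the receptor genes, Aplnr was found in 10.4% (4.30 to 20.3) and 16.5% (14.3 to 19.0), Kdr in 52.2% and 66.2%, and Nrp1 in 47.8% (35.4 to 60.3) and 71.2% (68.3 to 74.0). Flt1 was found in 79.1% (67.4 to 88.1) and 94.5% (92.9 to 95.8), and Tek in 19.4% (10.8 to 30.9) and 29.9% (27.1 to 32.8). In cells with an Aplnr UMI, Tek was found in 40.2% (32.9 to 47.9) of 174 cells, against 27.1% (24.3 to 30.2) of 903 without. The sham library was alike, with Tek in 40.3% (33.2 to 47.7) of 186 cells with Aplnr and 29.6% (27.8 to 31.4) of 2509 without. In the tenotomy library, cells with a Pgf UMI had Cxcr4 in 12.8% (4.83 to 25.7) of 47 cells, against 3.30% (2.30 to 4.58) of 1030 without. Dll4 was in 29.8% (17.3 to 44.9) and 15.9% (13.7 to 18.3) of these, and Esm1 in 2.13% and 0.971%. The cells of a library come from 1 pool and are no replicates, so the intervals describe that library only.

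In pericyte-like cells, 6 of the 10 genes were measured and none passed 2-fold in either direction, where 5.05% of 6213 measured genes were that much higher and 10.2% that much lower. The median log2 fold was -0.51 over the 6 genes and -0.10 over all measured genes. Flt1 was at 850.1 CPM and 443 CPM, 1.92-fold lower (1.62 to 2.29), and Kdr at 302 CPM and 169 CPM, 1.79-fold lower (1.35 to 2.40). In tenotomy the 5 highest cells held 50.6% of the Flt1 UMIs and, for Kdr, 49.2%. Over the alternatives Flt1 was 1.19-fold to 3.41-fold lower and Kdr 1.29-fold to 2.33-fold. Both receptors stood at about the share of the endothelial level that endothelial markers had there: in sham, Flt1 was at 29.5% and Kdr at 25.7% of their endothelial CPM, and the 9 endothelial gate markers had a median of 24.3% (range 18.9 to 51.7%). In tenotomy the values were 25.6%, 29.4% and 15.2% (range 10.6 to 42.0%), and none of the 9 markers was at 0. The part of endothelial RNA in the pericyte levels of Flt1 and Kdr was not tested.

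Nrp1 and Angpt2 were higher in pericyte-like cells than that share. Nrp1 was at 620.1 CPM (569 UMIs) in sham and 496 CPM (179 UMIs) in tenotomy, 58.7% and 77.8% of its endothelial CPM. Angpt2 was at 32.7 CPM (30 UMIs) and 52.6 CPM (19 UMIs), 111% (73.7 to 161) and 124% (73.5 to 198) of its endothelial CPM, and was 1.61-fold higher in tenotomy (0.856 to 2.96). Tek, at 39.2 CPM and 30.5 CPM, was at 21.5% and 17.6% of its endothelial CPM. Apln and Angpt1 had 0 UMIs in the 182 sham cells (up to 1.65% of cells with a UMI) and the 101 tenotomy cells (up to 2.97%), at median depths of 4478.5 and 3244 UMIs, which does not limit the share of cells that express them.

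In macrophage-like cells, 8 of the 10 genes were measured. Vegfa and Pgf were at least 2-fold higher in tenotomy, where 7.62% of 12002 measured genes were, and Flt1, Kdr, Aplnr and Tek at least 2-fold lower, where 14.2% were. The median log2 fold was -1.26 over the 8 genes and -0.06 over all measured genes. The 4 lower genes moved with endothelial transcripts: the summed level of the 9 endothelial markers in macrophage-like cells was 271 CPM in sham and 61.7 CPM in tenotomy. Flt1 stood at 97.0 CPM and 11.8 CPM, or 3.36% and 0.683% of its endothelial level, beside marker medians of 3.50% (range 1.70 to 9.26%) and 0.530% (0.431 to 3.28%). Kdr stood at 40.6 CPM and 5.94 CPM (3.46% and 1.03%), Tek at 12.2 CPM and 1.39 CPM (6.71% and 0.804%), and Aplnr had 7 and 21 UMIs. Without cells that carried at least 2 markers of another class, which left 174 sham and 2627 tenotomy cells, none of the genes still measured was 2-fold lower, and Kdr was 1.36-fold higher with an interval that includes no difference.

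Vegfa differed most of the genes that were higher in macrophage-like cells. It was at 16.6 CPM (42 UMIs) in 348 sham cells and 110.3 CPM (3323 UMIs) in 4567 tenotomy cells, 6.66-fold higher (4.92 to 9.26), and over the alternatives the fold ranged from 5.90 to 16.2. In sham, 5 cells held 61.9% of these UMIs. After thinning, 2.30% (0.931 to 4.69) and 15.7% (14.6 to 16.8) of cells had a UMI, unthinned 5.17% and 28.0%, at median depths of 6531.5 and 6079 UMIs. In lymphocyte-like cells, as given above, 5.00% and 3.76% of thinned cells had a Vegfa UMI. These are not a floor: their Vegfa was at 61.4 CPM (10 UMIs) in the 46 T or NK cell-like cells of tenotomy and at 5.13 CPM (3 UMIs) in the 238 B cell-like cells.

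The macrophage states differed widely in Vegfa. Cells marked by Spp1, Gpnmb, Fabp5, Trem2, Cd9 and Arg1, called lipid-associated here, numbered 2 in sham and 1123 in tenotomy, and those of tenotomy were at 222 CPM (1768 UMIs), with a Vegfa UMI in 53.5% of cells (30.8% thinned). Inflammatory monocyte-like cells of tenotomy (761 cells) were at 68.5 CPM and resident cells (757 cells) at 11.3 CPM. Resident cells, marked by Lyve1, Folr2, Timd4, Cd163, Mrc1, Cbr2 and F13a1, were the state with most sham cells (264), and there Vegfa was at 2.80 CPM (5 UMIs), 4.04-fold below tenotomy (1.64 to 12.9). In resident cells the thinned shares were 0.415% and 1.55%, from 1 and 11 cells with a UMI. Of all 4915 macrophage-like cells, 11.7% lay near a state limit.

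Nrp1 was 1.46-fold lower in macrophage-like cells of tenotomy (1.35 to 1.58), at 273 CPM (693 UMIs) and 187 CPM (5646 UMIs), but not within the resident state. Resident cells were at 339.8 CPM (606 UMIs) and 334 CPM (1859 UMIs), 1.02-fold apart (0.926 to 1.11), with a UMI in 46.9% and 47.1% of thinned cells. Lipid-associated cells of tenotomy were at 181 CPM and inflammatory monocyte-like cells at 78.5 CPM. Nrp1 in macrophage-like cells was at 25.8% and 29.4% of its endothelial CPM, well above the share of the endothelial markers. Pgf had only 4 UMIs in sham and 185 (6.14 CPM) in tenotomy macrophage-like cells, 3.89-fold (1.5 to 14.4). By the mean over cells this difference was 1.14-fold, and with the stricter gate it was 10.6-fold.

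In mesenchymal-like cells all 10 genes were measured. Apln was at least 2-fold higher in tenotomy, where 15% of 13984 measured genes were, and Pgf, Angpt1, Tek, Flt1, Kdr and Aplnr at least 2-fold lower, where 19.2% were. The median log2 fold was -1.56 over the 10 genes and -0.07 over all measured genes. Flt1 (34.6 CPM and 6.79 CPM), Kdr (13.2 CPM and 2.93 CPM) and Aplnr (40 and 13 UMIs) were again low and moved with the endothelial markers, whose summed level was 445 CPM in sham and 149 CPM in tenotomy. Flt1 and Kdr stood at 1.20% and 1.12% of their endothelial levels in sham, beside a marker median of 1.48% (range 0.825 to 49.0%). In the 799 sham and 334 tenotomy cells left without markers of another class, Flt1 was 1.68-fold and Aplnr 4.88-fold higher in tenotomy, each with an interval that includes no difference. No direction is therefore read for Flt1 and Aplnr in mesenchymal-like cells. The Kdr fold was lower over 11 settings, this one included, by 2.26-fold to 7.64-fold. In this one the folds of Kdr, Tek and Pgf were all past 2-fold lower, but only 2 genes counted as measured and 2-fold lower. Not all of these genes therefore met the minimum UMIs there. The UMIs and interval of Kdr in that setting are not given, so its direction there is not read as one that held. The part of endothelial RNA in the Kdr level was not tested.

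Tek in mesenchymal-like cells of sham was closer to its endothelial level than the other receptors were, and in tenotomy Nrp1 was closer (27.0%). In sham Tek was at 98.8 CPM (1665 UMIs), or 54.2% (50.9 to 57.8) of its endothelial level, and 17.2% (15.6 to 19.0) of thinned cells had a UMI, while none of the 60 lymphocyte-like cells did. Median depths were 8290 and 14073 UMIs in mesenchymal-like cells of sham and tenotomy. In tenotomy Tek was at 16.97 CPM (532 UMIs), 9.79% of the endothelial level, so it was 5.82-fold lower (5.28 to 6.43). Without the cells that carried markers of another class it was still 2.76-fold lower. Pi16-marked universal fibroblast-like cells held the most, at 159 CPM (698 UMIs) in sham and 69.1 CPM (162 UMIs) in tenotomy, 2.31-fold lower (1.94 to 2.76). Smoc2-marked interstitial cells were at 81.5 CPM and 34.0 CPM, 2.40-fold lower (1.67 to 3.56). Activated cells, marked by Postn, Tnc, Cthrc1, Acta2, Adam12, Lrrc15 and Timp1, numbered 2 in sham and 873 in tenotomy, and those of tenotomy had 9.68 CPM. Muscle stem-like cells also held Tek, at 34.3 CPM (57 UMIs) in 240 sham cells, 18.8% of the endothelial level beside 0.256% for Kdr, and 3.46 CPM (14 UMIs) in 213 tenotomy cells.

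Angpt1 (ENSMUSG00000022309, chr15:42424723-42676977, minus strand), the activating ligand of Tek, was almost confined to mesenchymal-like cells among the 4 classes. Its level there was 29.6 CPM (498 UMIs) in sham and 14.4 CPM (450 UMIs) in tenotomy, 2.06-fold lower (1.81 to 2.34), and macrophage-like cells, the next highest, had 1 and 11 UMIs. Within the Pi16-marked state it was 1.36-fold lower (0.902 to 2.08) and within the Smoc2-marked state 1.14-fold higher (0.773 to 1.63), and activated cells of tenotomy were at 11.8 CPM. Without cells with cell cycle UMIs the difference was 1.57-fold, below the 2-fold limit.

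Vegfa was highest of the 4 classes in mesenchymal-like cells of both libraries. It was at 176 CPM (2963 UMIs) and 134 CPM (4214 UMIs), 1.31-fold lower in tenotomy (1.25 to 1.37). Within the Pi16-marked state it was 2.33-fold lower (1.98 to 2.74), at 183 CPM and 78.9 CPM, and within the Smoc2-marked state 2.52-fold lower (1.99 to 3.24), at 196 CPM and 77.9 CPM. The activated cells of tenotomy were at 164 CPM (3476 UMIs), and they were also the deepest, with a median of 23484 UMIs. Pgf was 4.23-fold lower in tenotomy (3.85 to 4.64), at 89.2 CPM (1504 UMIs) and 21.1 CPM (662 UMIs), with a UMI in 11.6% and 3.14% of thinned cells. It was lower within both marked states, 3.38-fold (2.64 to 4.38) and 2.48-fold (1.74 to 3.65), and at 18.5 CPM in the activated cells. Apln was scarce, with 5 UMIs (0.297 CPM) in sham and 157 UMIs (5.01 CPM) in tenotomy, 16.9-fold higher (7.08 to 52.7), and 122 of the 157 were in activated cells. Only 0.105% and 0.952% of thinned cells had an Apln UMI, levels too near 1 UMI to read a change from the share. Nrp1 was at 159 CPM and 172 CPM, 1.08-fold higher (1.03 to 1.13). Of 3933 mesenchymal-like cells, 10.2% lay near a state limit.

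**Figure D4:**
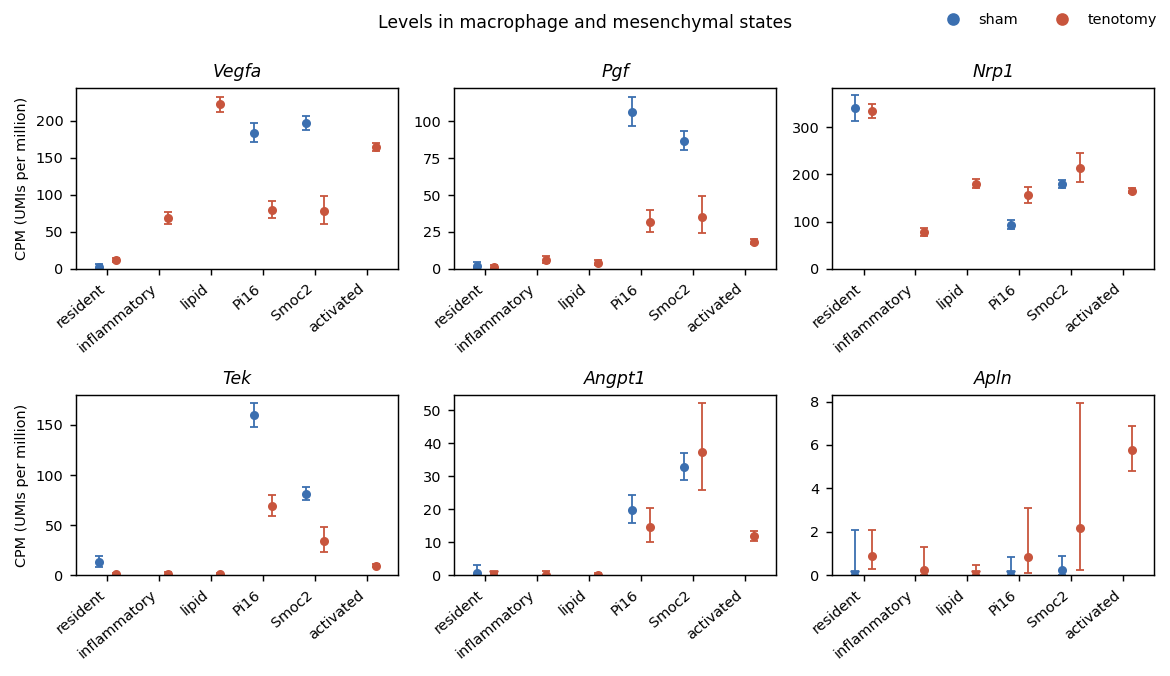
Levels of 6 genes in marker-defined states of macrophage-like cells (resident, inflammatory, lipid) and mesenchymal-like cells (Pi16, Smoc2, activated), in CPM on linear axes from 0 with exact 95% Poisson intervals; states with fewer than 40 cells in a library are not drawn. Vegfa is highest in the lipid-associated macrophage state of tenotomy, and Tek and Pgf are lower in tenotomy in the Pi16 and Smoc2 states.

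Muscle stem-like cells, outside the 4 classes, measured 4 of the genes, with Nrp1 at least 2-fold higher (35.1% of 9593 measured genes were) and Vegfa, Flt1 and Tek at least 2-fold lower (12.7% were). Nrp1 was at 13.8 CPM (23 UMIs) in sham and 99.8 CPM (404 UMIs) in tenotomy, 7.22-fold (4.74 to 11.5), and Vegfa at 106 CPM (177 UMIs) and 23.7 CPM (96 UMIs), 4.49-fold lower (3.48 to 5.82). The median log2 fold of all genes measured in that class was 0.49, and these folds are not corrected for it.

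Flt1, Kdr, Aplnr, Tek and Apln had their highest level among the 4 classes in endothelial-like cells of both libraries, Vegfa and Angpt1 in mesenchymal-like cells. Pgf changed place, highest in mesenchymal-like cells of sham and in endothelial-like cells of tenotomy. For Angpt2, endothelial-like and pericyte-like cells did not differ beyond counting error in either library. Nrp1 was highest in endothelial-like cells of both, followed by pericyte-like, macrophage-like and mesenchymal-like cells, and the last 2 were nearly level in tenotomy (187 CPM and 172 CPM).

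Summed over a library, the share of a gene's UMIs that each class held also moved with the sizes of the classes, given above. Of 4036 Vegfa UMIs in sham, 73.4% were in mesenchymal-like cells and 8.77% in endothelial-like cells. Of 8309 in tenotomy, 50.7% were in mesenchymal-like and 39.99% in macrophage-like cells. For Pgf, mesenchymal-like cells held 88.9% of 1692 sham UMIs and 41.0% of 1614 tenotomy UMIs, and endothelial-like cells 6.74% and 29.7%. For Nrp1, endothelial-like cells held 69.5% of sham and 22.7% of tenotomy UMIs, with 33.7% in macrophage-like cells of tenotomy. Flt1, Kdr and Aplnr stayed mostly in endothelial-like cells, at 80.2% to 88.2% of their UMIs. Tek was shared, with 51.5% and 58.3% in endothelial-like and 38.9% and 29.99% in mesenchymal-like cells. Over all kept cells, Vegfa was at 91.2 CPM in the sham and 93.4 CPM in the tenotomy library, while Flt1 was at 900.1 CPM and 142 CPM, a 6.36-fold difference against 1.67-fold within endothelial-like cells.

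**Figure D5:**
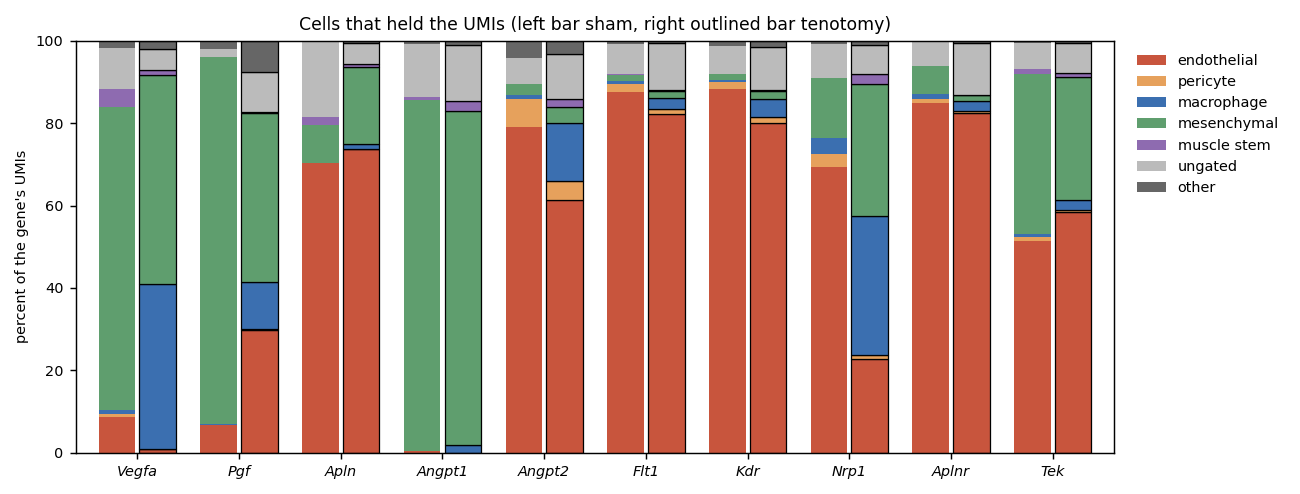
Percent of each gene's UMIs over all kept cells (y axis) that came from each gated class, with sham as the left bar and tenotomy as the right, outlined bar of each pair. Vegfa and Nrp1 gain a macrophage share in tenotomy, 39.99% and 33.7%, and Pgf shifts from mesenchymal-like to endothelial-like cells.

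The genes most like each of the 10, by Pearson correlation of log2(CPM + 10) over 18 class and library values from 11 classes, are given as a description, since the points share libraries and depth. Flt1 was most like Ptprb (0.99), an endothelial phosphatase that acts on Tek, and Fabp4 (0.99), and Kdr most like Gpihbp1 (0.99) and Ptprb (0.99). Apln was most like Tll1 (0.96) and Sdcbp2 (0.95), Aplnr most like Srarp (0.98) and Nepn (0.98), and Angpt2 most like Pcdh1 (0.96) and Pcp4l1 (0.93). For Tek the closest were Epha4 (0.95) and Adh1 (0.95), and for Angpt1 they were Wnt5a (0.96) and Penk (0.96). Pgf was most like Rtn1 (0.88) and Gstt3 (0.84), Nrp1 most like Plod1 (0.91) and Asah2 (0.91), and Vegfa, the least matched, most like Acvr1b (0.79) and Gstm4 (0.78).

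Other genes of these systems were taken from fixed lists. Of 15 other Vegf, angiopoietin and apelin genes, 10 were measured in endothelial-like cells, where 2 were at least 2-fold higher and none lower, beside 9.07% and 8.44% of all measured genes. Their median log2 fold was -0.01. Sema3f, a semaphorin that binds neuropilins, was at 17.4 CPM and 97.0 CPM, 5.57-fold higher (4.75 to 6.55), and Vegfb, a ligand of Flt1, at 4.29 CPM and 9.05 CPM, 2.11-fold (1.41 to 3.14). Largest on the lower side, below the 2-fold limit, were Ptprb at 1.72-fold and Tie1, the orphan partner of Tek, at 1.5-fold. Of 13 genes of the Vegf receptor 2 pathway and its feedback, 12 were measured there, none higher and 2 lower, beside the same 9.07% and 8.44% of all measured genes. The median log2 fold of the 12 was -0.37. The 2 were Nr4a1, an immediate early gene, 2.29-fold lower (2.10 to 2.51), and Spry4, a feedback inhibitor of receptor signalling, 2.02-fold lower (1.77 to 2.31). On the higher side, Shb at 1.59-fold and Rcan1 at 1.41-fold did not reach 2-fold.

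Of 13 tip cell genes, 6 of which also define the sprouting state, 12 were measured in endothelial-like cells, where 9.07% of all measured genes were higher and 8.44% lower, and of these 12 there were 6 higher and none lower, with the median log2 fold at 0.86. Besides Apln, the largest was Plvap, a protein of endothelial fenestrae, at 50.7 CPM and 330.2 CPM, 6.51-fold (5.94 to 7.14), while Dll4 was 1.54-fold lower and Esm1 1.28-fold lower. All 12 cell cycle genes were higher in endothelial-like cells, with a median log2 fold of 4.63, among them Cenpf with 3 and 120 UMIs (81.1-fold, 27.1 to 399) and Pclaf with 9 and 297 UMIs (66.9-fold), the smallest folds being those of Rrm2 (4.19) and Tyms (5.73). Vegfa is a known target of hypoxia-inducible factors. Of 18 other hypoxia-response genes, 17 were matched and measured in macrophage-like cells, 3 higher and 2 lower, where 7.62% of all measured genes were higher and 14.2% lower. The median log2 fold was -0.22 against -0.06 over all genes. Ndrg1 was 4.07-fold (3.21 to 5.25) and Slc2a1, a glucose transporter, 2.24-fold higher (1.74 to 2.94), while Adm, the vessel peptide adrenomedullin, was 10.2-fold (6.34 to 16.3) and Pfkfb3, a glycolysis regulator, 3.26-fold lower (2.90 to 3.66). In endothelial-like cells 16 of these genes were measured, 1 higher and 3 lower, beside 9.07% and 8.44% of all measured genes. Their median log2 fold there was -0.18.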

How the data were processed

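Gene expression was measured in 2 pools of living mononuclear cells, 1 sham and 1 tenotomy, with 10x Chromium Next GEM 3′ v3.1 chemistry. The authors deposited raw UMI counts per gene and cell. Cell Ranger 4.0.0 and the mm10 build are named in the submitters' processing notes. All 10 symbols matched, and positions are mm10 gene spans of the GENCODE annotation.

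Cells with at least 300 genes, 500 UMIs and at most 10% mitochondrial UMIs were kept. Doublets were called with scrublet in scanpy 1.11.5. The threshold found in the tenotomy library, 0.212, was used for both, since the one found in sham called 1 cell, and it removed 2.46% of sham and 2.85% of tenotomy cells. A cell was gated into a class when at least 3 of the class's markers were detected and their mean log level was 1.5 times that of the next class, and into a state by a mean capped z-score (2 markers, lead of 0.5). These limits were set after the scores were seen. The 10 genes and all lists were chosen with earlier results of these data known.

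UMIs were summed per class and library. Fold intervals are exact conditional binomial, shares Clopper-Pearson and levels Poisson, each at 95%. Since PCR and pooling are not covered, they hold for counting error only. With 1 library a group, no test was run and no p-value is given. A count of 0 was set to a floor of 3 counts for limits. All 10 genes are named in every class whatever their values. Of each other list, the 2 genes with the largest fold each way in endothelial-like cells (hypoxia-response genes: macrophage-like cells) are named, and for likeness the 2 genes with the highest correlation among genes with at least 200 UMIs, over classes with at least 50 cells in a library. The code for folds and their intervals was run on simulated counts with counting error only. Those counts lacked the concentration of UMIs in few cells, and shares, state levels and correlations were not simulated. Alternatives covered gates, clusters (Leiden), doublets, filters, thinning, weighting, fold limits and cell subsets. Python 3.11.15, numpy 2.4.6, scipy 1.17.1 and pandas 2.3.3 were used.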

Additional observations from a re-analysis of the deposited data

Results flagged for a closer look

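In the sums over all cells of a class, 3 of the 10 genes had opposite directions in different classes, past 2-fold on both sides. None of these differences between classes was tested because each group has 1 library. Vegfa was 6.66-fold higher in macrophage-like cells of the tenotomy library and 2.42-fold lower in its endothelial-like cells. The endothelial difference was 1.85-fold with doublets kept and under 2-fold without cells that carried markers of another class. The endothelial Vegfa share overlapped that of lymphocyte-like cells, which held Vegfa themselves and are no background for it. Pgf was 8.54-fold higher in endothelial-like and 3.89-fold higher in macrophage-like cells, and 4.23-fold lower in mesenchymal-like cells. The macrophage-like fold rests on 4 sham UMIs and ranged from 1.14-fold to 10.6-fold over the alternatives, so it did not stay past 2-fold. Aplnr was 3.07-fold higher in endothelial-like cells, 3.96-fold lower in macrophage-like cells and 5.72-fold lower in mesenchymal-like cells, and in both of the latter its levels moved with those of the endothelial markers. Its macrophage-like fold rests on 7 sham UMIs. Over the alternatives it ranged from 1.48-fold to 6.60-fold lower, so it did not stay past 2-fold either. Without cells that carried markers of another class, Aplnr in mesenchymal-like cells was 4.88-fold higher with an interval that includes no difference, so its opposite direction there did not hold and is not read as one.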

How the results depend on the processing

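No paired analysis was possible because each group is 1 pooled library with no replicate number, and leaving out a replicate was not possible for the same reason. In the form higher/lower, the number of the 10 genes past 2-fold was 3/2 in endothelial-like, 0/0 in pericyte-like, 2/4 in macrophage-like and 1/6 in mesenchymal-like cells. Over all alternatives, 100 such counts stayed within 1.5 times and 20 did not. Values moved more often: of the folds, 247 stayed within their counting interval, 72 left it and 3 turned direction. Of the shares of cells, 21 stayed and 59 moved, of the class shares of a gene's UMIs 150 stayed and 90 moved, and of the levels in states 328 stayed and 68 moved. In endothelial-like cells the lower count was 1 with doublets kept, by the mean over cells, after thinning and without cells with cell cycle UMIs, 4 at a fold of 1.5 and 0 at a fold of 3. In pericyte-like cells the higher count was 2 with Leiden clusters as classes and 1 at a fold of 1.5 or with at least 10 UMIs, and the lower count was 2 with the stricter gate and 3 at a fold of 1.5. In macrophage-like cells the higher count was 1 by the mean over cells and after thinning, and the lower count 2 after thinning or with at least 100 UMIs. In mesenchymal-like cells the higher count was 0 after thinning. Another 3 alternatives were chosen after seeing the data. Of these, leaving out cells with at least 2 markers of another class left 2157 and 645 endothelial-like, 16 and 6 pericyte-like, 174 and 2627 macrophage-like and 799 and 334 mesenchymal-like cells of sham and tenotomy. The lower count was then 0 in endothelial-like and macrophage-like cells, and mesenchymal-like cells had 0 higher and 2 lower. Under it the log2 fold of Kdr in macrophage-like cells turned to 0.45, of Flt1 in mesenchymal-like cells to 0.75 and of Aplnr in mesenchymal-like cells to 2.29. For the fold limits and minimum UMIs the stricter or looser limit itself sets the count, and elsewhere the cause was not tested. Over 11 settings, Apln in endothelial-like cells stayed 27.3-fold to 39.5-fold higher, Pgf 8.10-fold to 10.6-fold and Aplnr 2.29-fold to 3.14-fold, and Pgf in mesenchymal-like cells 3.31-fold to 4.23-fold lower. Angpt1 in endothelial-like cells of tenotomy and Apln in pericyte-like cells were not detectable at this depth.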

Other observations

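Dendritic-like cells, outside the 4 classes, had 0 Pgf UMIs in 11 sham cells and 94 (39.0 CPM) in 304 tenotomy cells, at least 2.16-fold higher against a floor of 3 counts in sham. Neutrophil-like cells held Vegfa at 65.2 CPM (35 UMIs) and 39.3 CPM (88 UMIs), 1.66-fold lower in tenotomy (1.09 to 2.48). Muscle stem-like cells held 4 Angpt1 UMIs in sham and 13 in tenotomy. Of the lists of other genes, those of macrophage-like cells not given above had 3 lower and none higher of 8 measured other Vegf, angiopoietin and apelin genes, and 5 lower and none higher of 9 measured tip cell genes, in a class where 14.2% of all measured genes were lower and 7.62% higher and where the endothelial markers were also lower.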
